A study of Mus musculus with 4 samples.

Results

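The glycolysis and hypoxia response genes are 33 of the 31053 genes counted in mouse subcutaneous MycCaP tumors and in subcutaneous inguinal adipose tissue (SAT). They were listed by name for their place in these pathways, by a rule that names no measured value, with earlier results of these data known. The glucose transporter Slc2a1 and the hexokinases Hk1 and Hk2 stand at the entry. Upper glycolysis is represented by Gpi1, Pfkl, Pfkp, Pfkm, Pfkfb3, Aldoa, Aldoc and Tpi1, and lower glycolysis by Gapdh, Pgk1, Pgam1, Eno1 and Pkm. Ldha, Slc16a3, Slc16a1 and Pdk1 act on pyruvate and lactate, and Hif1a, Egln1 and Egln3 belong to the oxygen sensing step. The other 10 genes, Bnip3, Car9, Car12, Ddit4, Ndrg1, Ankrd37, Adm, P4ha1, P4ha2 and Hilpda, are known targets of the hypoxia response. All 33 were found in all 4 count matrices.

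Single cells were captured from mice whose genotype is labelled VFB (FVB, in the study's methods), raised on chow and bearing subcutaneous grafts of MycCaP, a prostate carcinoma line from the HiMyc mouse in which a transgene drives Myc. The mice received D-CAN, a peptide against adipose stromal cells (ASC), or, as controls, PBS. There was 1 library from tumor and 1 from the stromal and vascular cells of SAT in each treatment arm, so each of the 4 groups was 1 library. Whether a library pooled several mice is not given in the sources used here. With 1 library a group no test was run, every interval below covers counting error only, and tissue and library cannot be told apart.

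Glycolysis splits glucose into pyruvate, and lactate dehydrogenase turns pyruvate into lactate, which leaves the cell through monocarboxylate transporters. When oxygen falls, the prolyl hydroxylases of the Egln family stop marking HIF-1alpha for destruction, and the HIF complex binds short motifs built on the letters ACGTG beside genes for glucose uptake, glycolysis, lactate export, mitophagy, vessel growth and collagen maturation. Tumors with a poor blood supply are known for this programme, and MYC is known to drive many of the same glycolytic genes.

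The libraries held 2830 cells (tumor control), 1525 (tumor D-CAN), 2851 (SAT control) and 1922 (SAT D-CAN), with between 6667064 and 17996284 UMIs each, and any 2 libraries shared at most 2 barcodes. Cell classes were rebuilt by clustering without the 33 genes and are macrophage-like, endothelial-like, fibroblast-like, perivascular-like and cancer cell-like clusters; fibroblast-like and perivascular-like cells together are called stroma, and the names are shortened below. Cells in control and D-CAN numbered 1264 and 662 for cancer cells, 640 and 427 for tumor macrophages, 101 and 67 for tumor endothelium and 193 and 117 for tumor stroma. In SAT they numbered 150 and 73, 561 and 170 and 462 and 133. Median UMIs per cell were 11286 and 18690.5 in cancer cells and 1023 and 4236 in SAT endothelium. Of the 9 epithelial markers, Krt8, Cldn3 and Cldn4 passed the naming thresholds in every cancer cell cluster. Psca passed in the others but not in the clusters of 563 and 235 cells, and Krt19 passed in no cancer cell cluster. Epcam, Krt18, Cldn7 and Cdh1 were at or near 0. Another 563 and 214 tumor cells, with median mitochondrial shares of 39.6% and 51.6%, carried no marker set and stayed unnamed. Levels are CPM, a gene's UMIs divided by all UMIs of the class in that library and scaled to the same total for every class, and are not ranked between genes, since capture differs from gene to gene.

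Summed over the 33 genes, cancer cells, macrophages, endothelium and stroma of tumor all stood above macrophages, endothelium and stroma of SAT. Cancer cells gave 8297 and 8415 CPM in control and D-CAN, tumor macrophages 9449.6 and 9127, tumor endothelium 10326 and 7421 and tumor stroma 6635 and 7047. SAT macrophages gave 2458 and 2401, SAT endothelium 2781 and 2905 and SAT stroma 2503 and 2249. By this sum cancer cells lay within the range of the other tumor classes. The lower glycolytic enzymes made up most of it: their sum was 5326 and 5484 CPM in cancer cells, 4759 and 4868 in tumor macrophages and 1024 and 1031 in SAT macrophages. The hypoxia targets ran in another order, with 261 and 255 CPM in cancer cells below 534 and 632 in SAT endothelium and 342 and 392 in SAT stroma. Ndrg1 alone made up most of that SAT endothelium sum and was at 0.138 and 0.395 CPM in cancer cells. The difference between cancer cells and SAT endothelium therefore rests on that gene.

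**Figure D1:**
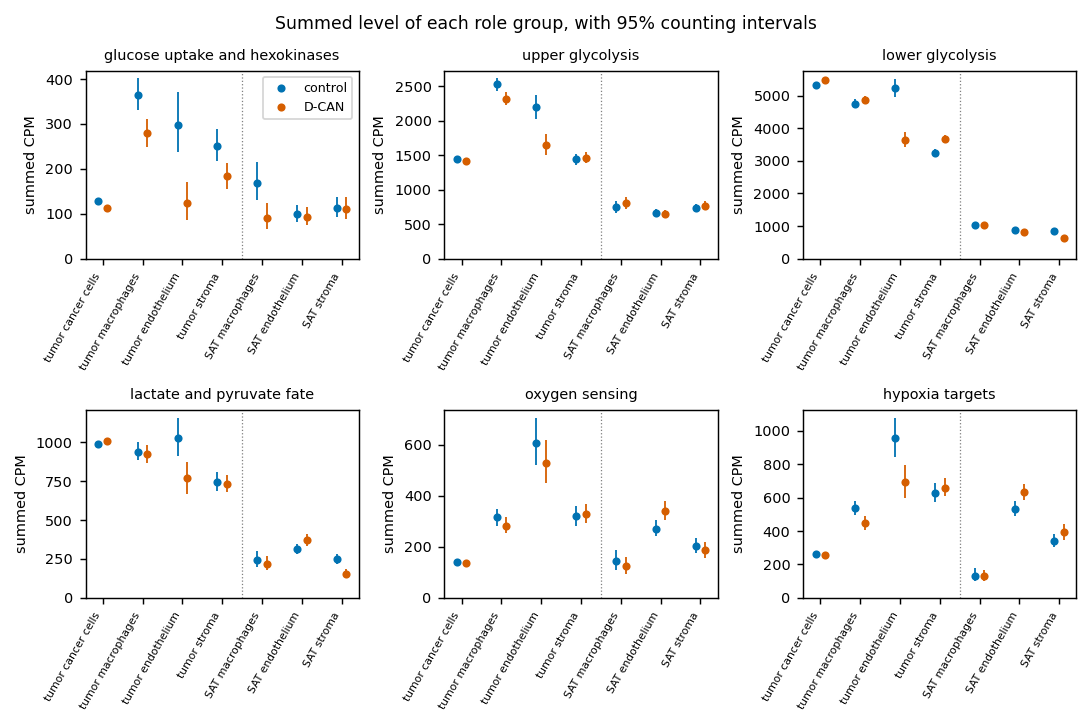
Summed CPM of the genes of each role (vertical axis) by cell class (horizontal axis), with 1 point for each library, blue for control and orange for D-CAN, and bars for 95% Poisson counting intervals. Upper and lower glycolysis and lactate genes are higher in all 4 tumor classes than in all 3 SAT classes. Summed hypoxia targets are lower in cancer cells than in SAT stroma and than in SAT endothelium, the latter a gap that rests on Ndrg1.

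Macrophages, endothelium and stroma are present in both tissues, so each tumor class was set against its SAT counterpart within the control pair and within the D-CAN pair of libraries. A gene was called when it was at least 2-fold apart in the same direction in both pairs, and it was read only where each pair gave at least 20 UMIs. In macrophages 26 of the 33 genes could be read, and 16 were called higher in tumor, against 4.86% of all 6488 genes read, and 0 lower (4.42% of all genes). In endothelium 27 could be read, of which 16 were higher (all genes 4.59%) and 1 lower (all genes 5.74%). In stroma 28 could be read, of which 15 were higher (all genes 6.22%) and 0 lower (all genes 8.73%). The median log2 ratio of the genes read was 1.97 in macrophages, 1.62 in endothelium and 1.09 in stroma, where the medians over all genes were -0.02, 0.02 and -0.03.

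Because a gene that is scarce in SAT could pass this minimum only by being high in tumor, the count was also taken over genes with at least 20 UMIs in the SAT class of both pairs. That left 12 of the genes in macrophages, 8 of them 2-fold higher in tumor (all genes 3.05%), 23 in endothelium, 13 of them higher (all genes 3.2%), and 17 in stroma, 10 of them higher (all genes 4.13%). The genes called higher in all 3 classes under this second minimum were Aldoa, Tpi1, Gapdh, Pgk1, Pgam1, Eno1, Pkm and Ldha, which run without a break from aldolase to lactate. Called higher under the first minimum only were Slc2a1, Slc16a3, Egln1, Egln3, Bnip3, Ankrd37, P4ha1 and Hilpda in macrophages. In endothelium these were Slc16a3, Ankrd37 and P4ha2, and in stroma Slc2a1, Pfkl, Slc16a3, Bnip3 and Ankrd37.

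**Figure D2:**
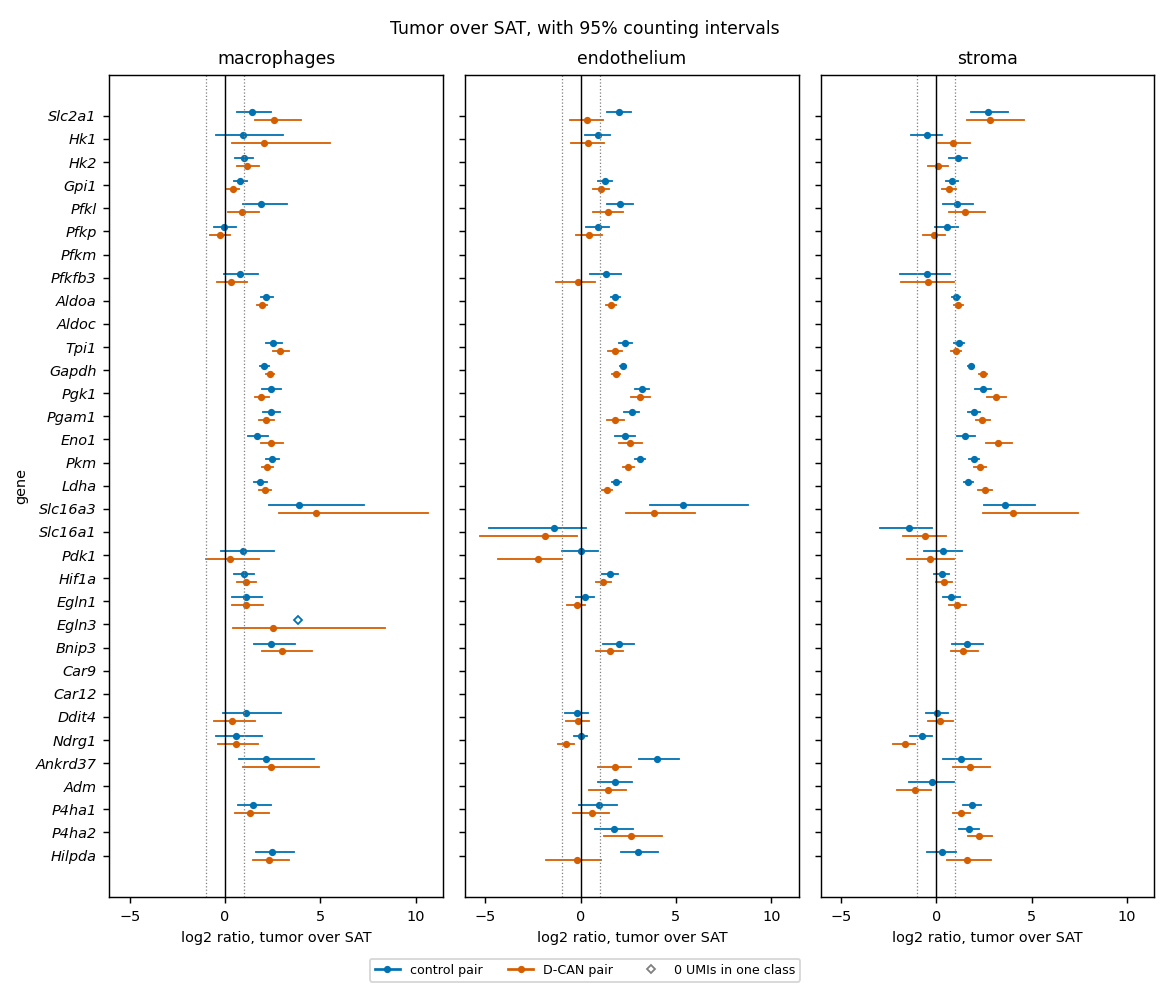
Log2 ratio of tumor over SAT (horizontal axis) for each gene (vertical axis) in macrophages, endothelium and stroma, with blue points for the control pair, orange points for the D-CAN pair, bars for 95% counting intervals, open diamonds where 1 class had 0 UMIs, and no point where UMIs were too few. From Aldoa to Slc16a3 the points lie to the right of the dotted line at a log2 ratio of 1, Aldoc aside, whereas Pfkp, Ddit4 and Ndrg1 lie near or to the left of 0 in several classes.

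At the entry to glycolysis, Slc2a1, the GLUT1 transporter (chr4:119108711-119137983, plus strand, GRCm38), gave 84.5 and 51.8 CPM in tumor stroma of control and D-CAN against 12.7 and 6.86 in SAT stroma, and 95.7 and 95.2 in tumor macrophages against 34.8 and 15.2. Both classes were past 2-fold in both pairs, with log2 ratios of 2.69 and 2.80 in stroma and 1.41 and 2.56 in macrophages. In neither class did Slc2a1 meet the second minimum, of 20 UMIs in the SAT class of both pairs. In endothelium the control pair stood apart (155 against 38.1 CPM) and the D-CAN pair hardly did (58.4 against 46.8). Within SAT endothelium Slc2a1 was highest in the cluster led by Glycam1, Sele and Ackr1, at 95.5 and 119 CPM, and was at 21.0 and 18.5 and at 13.1 and 22.8 in the others. Hk2, the hexokinase known to respond to hypoxia, was at 247 and 162 CPM in tumor macrophages and 123 and 71.5 in SAT macrophages, log2 ratios of 0.99 and 1.16, the first just under the threshold. Endothelium held little Hk2, at 36.0 and 6.87 CPM in tumor and 4.33 and 1.99 in SAT, too few UMIs to read. Hk1, the housekeeping form, was not called in any class, with log2 ratios between -0.48 and 2.07.

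The upper enzymes divided into steps that stood apart between tissues and isoforms that did not. Aldoa, the aldolase that splits fructose bisphosphate, gave 1053 and 934 CPM in tumor macrophages against 233 and 245 in SAT, 899 and 701 against 256 and 231 in endothelium and 638 and 671 against 313 and 303 in stroma. All 6 tumor values lay above all 6 SAT values, and the gap was narrowest in stroma, with log2 ratios of 1.03 and 1.14. Tpi1, triose phosphate isomerase, had log2 ratios of 2.53 and 2.89 in macrophages, 2.34 and 1.81 in endothelium and 1.18 and 1.01 in stroma. Pfkl, the liver-type phosphofructokinase, was called in endothelium (2.05 and 1.45) and stroma (1.11 and 1.53), and Gpi1, the isomerase before it, in endothelium only (1.27 and 1.06). Pfkp, the platelet-type isoform, was at 92.1 and 91.6 CPM in tumor macrophages and 93.8 and 110.4 in SAT macrophages, with both intervals of the ratio spanning 1. Pfkfb3, which makes the activator of phosphofructokinase, was not called in any class, and in endothelium the pairs split, at log2 ratios of 1.32 and -0.17. Pfkm and Aldoc, the muscle and brain forms, gave too few UMIs to be read, the highest levels being 9.97 CPM for Pfkm in SAT endothelium of D-CAN and 17.9 CPM for Aldoc in tumor macrophages of control.

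In lower glycolysis all 5 enzymes were called higher in tumor in all 3 classes. Gapdh (chr6:125161715-125166467, minus strand) gave 2093 and 2239 CPM in tumor macrophages against 499 and 442 in SAT, 2467 and 1705 against 539 and 472 in endothelium, and 1507 and 1642 against 432 and 302 in stroma. The lowest tumor value was above the highest SAT value by more than the counting intervals. Pgk1, phosphoglycerate kinase (chrX:106187100-106203699, plus strand), stood furthest apart of these enzymes in endothelium, where 745 and 450.3 CPM faced 79.7 and 51.8, ratios of 9.34-fold (95% interval 7.27 to 12.1) and 8.69-fold (95% interval 6.26 to 12.2). Its log2 ratios were 2.40 and 1.90 in macrophages and 2.43 and 3.12 in stroma. Pkm, pyruvate kinase, had log2 ratios of 2.46 and 2.21, 3.11 and 2.505 and 1.98 and 2.28 in the same order of classes as above, and Pgam1, the mutase, 2.41 and 2.15, 2.67 and 1.80 and 1.98 and 2.42. Eno1, enolase, reached 1.53 and 3.22 in stroma, so the pairs differed most there. Its near copy Eno1b held 43 UMIs in the tumor control library against 5159 for Eno1, and 8 against 543 in SAT control.

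The stretches of 250 bases before the start sites are shown for Pgk1, Ldha, Pgam1 and Gapdh, some of the genes called in all 3 classes. The window of the hydroxylase Egln3, which is described further on, is shown as well. RefSeq start sites (GRCm38.p6) were found for 32 of the 33 genes, with Ndrg1 the exception, at 46 sites. Each sequence runs 5′ to 3′ toward the gene and ends at the base before the start. Capitals mark ACGTG, a core of the HIF motif, read on either strand. It reads CACGT when on the other strand. Where both strands overlap it is CACGTG, which is also the E-box letters known for MYC. GCGTG, a variant of this core, was counted but is not marked. The Pgk1 window was chrX:106186850-106187099 on the plus strand, the window before the first RefSeq start of Ldha chr7:46845554-46845803 on the plus strand and the Pgam1 window chr19:41911621-41911870 on the plus strand. The Egln3 window was chr12:54203875-54204124 on the minus strand and the Gapdh window chr6:125165774-125166023 on the minus strand. None overlaps an annotated exon. The Ldha and Gapdh windows lie inside the gene spans annotated by GENCODE, downstream of the outermost start of each.
Pgk1: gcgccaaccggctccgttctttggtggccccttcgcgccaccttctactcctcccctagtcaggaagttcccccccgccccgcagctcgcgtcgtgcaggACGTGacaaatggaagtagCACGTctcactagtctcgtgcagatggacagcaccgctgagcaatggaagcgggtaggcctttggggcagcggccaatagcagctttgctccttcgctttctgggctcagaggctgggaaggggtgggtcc
Ldha: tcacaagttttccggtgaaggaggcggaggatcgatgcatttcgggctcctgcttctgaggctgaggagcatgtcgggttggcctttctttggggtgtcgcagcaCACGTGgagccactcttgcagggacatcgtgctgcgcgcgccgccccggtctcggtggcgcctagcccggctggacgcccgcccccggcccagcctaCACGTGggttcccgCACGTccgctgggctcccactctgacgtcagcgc
Pgam1: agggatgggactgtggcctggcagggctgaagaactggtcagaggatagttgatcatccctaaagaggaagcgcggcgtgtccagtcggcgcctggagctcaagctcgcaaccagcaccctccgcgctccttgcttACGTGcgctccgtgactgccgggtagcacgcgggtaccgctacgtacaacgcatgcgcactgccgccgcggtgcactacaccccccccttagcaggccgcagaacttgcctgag
Egln3: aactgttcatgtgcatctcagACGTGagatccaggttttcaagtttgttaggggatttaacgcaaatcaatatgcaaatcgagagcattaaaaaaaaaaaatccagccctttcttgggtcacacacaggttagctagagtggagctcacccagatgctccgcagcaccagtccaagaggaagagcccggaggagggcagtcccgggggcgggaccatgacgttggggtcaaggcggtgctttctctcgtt
Gapdh: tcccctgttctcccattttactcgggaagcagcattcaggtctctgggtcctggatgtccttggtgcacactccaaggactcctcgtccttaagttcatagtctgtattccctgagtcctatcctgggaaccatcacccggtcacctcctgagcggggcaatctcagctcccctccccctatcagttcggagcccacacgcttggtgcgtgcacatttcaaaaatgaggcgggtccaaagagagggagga
The Ldha window shown holds ACGTG at 3 places, of which 2 are CACGTG, and the Pgk1 window holds it at 2. The window before the other RefSeq start of Ldha, chr7:46846832-46847081 on the plus strand, holds none. The Gapdh window holds no ACGTG, which says only that these letters are not in it. GCGTG, counted on either strand, was at 2 places in the Gapdh window and at 1 in that other Ldha window. Among the enzymes from Aldoa to Ldha not shown, the Tpi1 window and all Eno1 windows hold no ACGTG. Aldoa and Pkm hold it in part of their windows. Of the 46 windows, 24 (52.2%) held ACGTG on either strand, 1 Aldoa site being counted in 2 overlapping windows. The share was 16.6% of all 32851 RefSeq windows of this length and 17.8% of those of protein-coding genes. ACGTG or GCGTG was in 37 of the 46 windows (80.4%), against 38.6% of all RefSeq windows. Each of these motifs contains a CG, and the windows of the 33 genes held a median of 14 CG pairs. The median was 6 in all windows and 10 in those of protein-coding genes. A match is a description and not a bound site.

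For lactate, Ldha, which turns pyruvate into lactate (chr7:46841475-46855627, plus strand), gave 795 and 816 CPM in tumor macrophages against 219.8 and 193 in SAT, 888 and 684 against 243 and 263 in endothelium and 630.1 and 648 against 196 and 111 in stroma. Slc16a3, the lactate exporter MCT4 (chr11:120948480-120960868, plus strand), had the widest gap of the genes read in all 3 classes. It was at 99.2 and 87.2 CPM in tumor macrophages (111 and 98 UMIs) and 5.36 and 2.17 in SAT (2 and 1 UMIs), ratios of 18.5-fold (95% interval 5.01 to 155) and 40.3-fold (95% interval 7.06 to 1606). Tumor endothelium held 86.3 and 61.9 CPM against 1.73 and 3.99, and tumor stroma 82.0 and 56.2 against 6.33 and 2.74. With so few UMIs in SAT the intervals are wide, and the lower bound of each is above 5.

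Slc16a1, the transporter MCT1 that carries lactate either way, went the other way in endothelium, at 7.19 and 6.87 CPM in tumor (2 UMIs in each library) and 23.4 and 30.9 in SAT. The ratios were 0.307 (interval 0.0354 to 1.22) and 0.222 (0.0258 to 0.874), so the first does not clear counting error. Pdk1, the kinase that inhibits pyruvate dehydrogenase, was not called: SAT endothelium had 46.8 and 73.8 CPM and tumor endothelium 46.8 and 13.7.

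Among the genes of oxygen sensing, Hif1a encodes the regulated HIF subunit. It gave 331 and 316 CPM in tumor endothelium against 114 and 139.5 in SAT endothelium, log2 ratios of 1.55 and 1.18. In SAT endothelium it too was highest in the Glycam1 cluster, at 242 and 344 CPM, and lowest in the cluster led by Car4, at 50.1 and 41.8. Macrophages straddled the threshold (0.98 and 1.08) and stroma did not reach it (0.28 and 0.41). Egln1 (PHD2), the main oxygen-sensing hydroxylase, was called in macrophages alone (1.09 and 1.11); in endothelium its log2 ratios were 0.25 and -0.21. Egln3 (PHD3), a hydroxylase that HIF itself induces (chr12:54178981-54203860, minus strand), held 25 and 12 UMIs in tumor endothelium (89.9 and 41.2 CPM) against 0 and 1 in SAT endothelium. Against the floor that 3 UMIs would give in the SAT control class it was 34.6-fold higher in the control pair, the counting error of the tumor UMIs left out. The D-CAN ratio was 41.4-fold (95% interval 6.12 to 1769). The D-CAN pair held under 20 UMIs in all, so Egln3 was not among the genes read in endothelium. In tumor stroma 24 of its 25 UMIs in control and 7 of 11 in D-CAN came from perivascular-like cells.

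The hypoxia targets were not uniform. Bnip3, which drives mitophagy, was called in all 3 classes, at 136 and 111 CPM in tumor macrophages against 24.1 and 12.99, 97.1 and 113 in tumor endothelium against 24.3 and 39.9, and 61.5 and 89.3 in tumor stroma against 20.03 and 32.9. Ankrd37, an ankyrin repeat gene widely used as a hypoxia marker, was also called in all 3, with log2 ratios of 2.15 and 2.39, 4.01 and 1.79 and 1.31 and 1.75. Its SAT levels rest on 3 and 3 UMIs in macrophages.

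Hilpda, which blocks lipolysis at the lipid droplet, was at 156 and 121 CPM in tumor macrophages and 26.8 and 23.8 in SAT macrophages, and it was called in that class only. In endothelium its pairs parted, with log2 ratios of 3.03 and -0.19. P4ha1 and P4ha2, subunits of the prolyl 4-hydroxylase that matures collagen, peaked in tumor stroma: P4ha1 at 199.8 and 194 CPM against 54.8 and 78.2 in SAT stroma, and P4ha2 at 159 and 164 against 48.5 and 34.3. Within tumor stroma P4ha2 was at 207 and 218 CPM in fibroblast-like and 103 and 58.9 in perivascular-like cells. Adm, the vasodilator adrenomedullin, was called in endothelium (75.5 and 61.9 CPM against 21.7 and 22.9) and had log2 ratios of -0.20 and -1.13 in stroma.

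Ddit4 and Ndrg1, both stress-responsive, were called in none of the 3 classes. In macrophages both were higher in tumor in both pairs, as were 25 of the 26 genes read, but not past 2-fold in both. Each held under 20 UMIs over both SAT macrophage classes. Ddit4, an inhibitor of mTORC1, was at 101 and 99.7 CPM in tumor endothelium and 115 and 111 in SAT. Ndrg1 was at 302 and 217 in tumor endothelium and 305 and 368 in SAT endothelium, and in stroma it was lower in tumor, with log2 ratios of -0.78 and -1.66 that passed 2-fold in 1 pair only. Endothelial markers summed to 1468 and 771 CPM in SAT stroma and 98.6 and 118 in tumor stroma, and their part in the Ndrg1 values was not tested. Within SAT endothelium it was highest in the Glycam1 cluster, at 528 and 689 CPM. Car9, the surface carbonic anhydrase, was seen in tumor macrophages at 14.3 and 12.5 CPM (16 and 14 UMIs), with 0 UMIs in endothelium and stroma of either tissue. Car12 held at most 3 UMIs in any of these 14 class and library combinations.

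**Figure D3:**
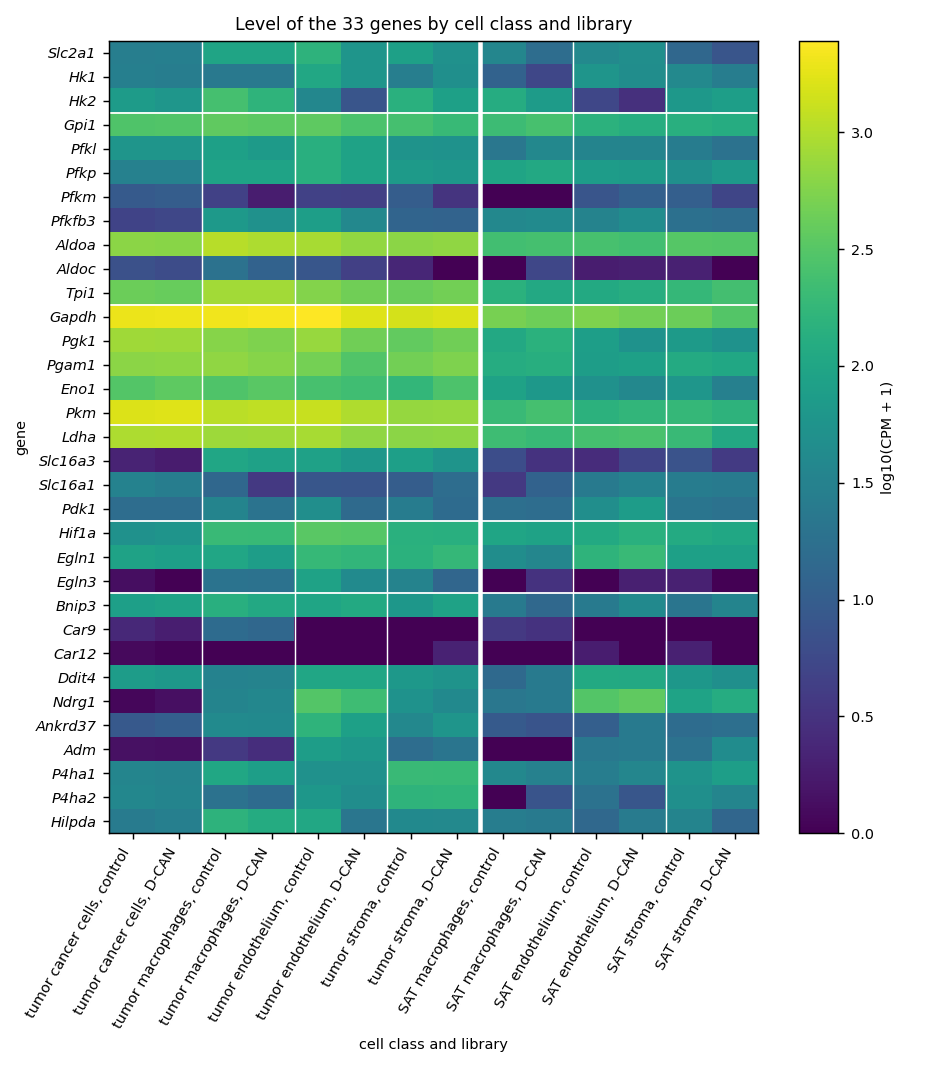
Level of each of the 33 genes (rows, grouped by role with white lines) in each cell class and library (columns, tumor left of the thick line and SAT right of it), coloured by log10(CPM + 1). The block from Aldoa to Ldha, Aldoc aside, is brighter in all tumor columns than in the SAT columns, and Slc16a3, Egln3, Ndrg1 and Adm are dark in cancer cells.

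Cancer cells were next compared with each other tumor class, a gene being called when it was 2-fold apart from macrophages, endothelium and stroma in both tumor libraries and read where the 4 classes together gave at least 20 UMIs in each library. Of 32 genes read, 0 were higher in cancer cells, where 6.13% of all genes read were, and 8 were lower, where 13.5% of all genes were. The lower ones were Pfkp, Pfkfb3, Slc16a3, Hif1a, Egln3, Ndrg1, Ankrd37 and Adm. For Adm (against macrophages, and in control against stroma) and Egln3 (in D-CAN, against endothelium and stroma), some of these pairs of classes held under 20 UMIs, and for Adm the D-CAN difference from macrophages did not clear counting error, with an interval of the ratio of cancer cells to macrophages of 0.0363 to 2.33. Slc16a3 was at 1.18 and 0.789 CPM in cancer cells, 84.4-fold (interval 50.4 to 150.1) and 110.4-fold (interval 57.6 to 238) higher in tumor macrophages. Slc16a1 was the transporter present in cancer cells, at 30.7 and 26.1 CPM, where tumor macrophages had 12.5 and 2.67.

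Ndrg1 gave 2 and 5 UMIs among 14458133 and 12667421 UMIs of cancer cells. Tumor macrophages stood 239-fold (interval 61.7 to 2048) and 92.4-fold (interval 36.5 to 299.6) above that. Egln3 gave 5 and 0 UMIs in cancer cells. In the D-CAN library tumor endothelium was 174-fold above the floor of 3 UMIs, a value that leaves out the counting error of the endothelial UMIs. Adm gave 6 and 5 UMIs in cancer cells and 75.5 and 61.9 CPM in tumor endothelium, but just 3 and 2 UMIs in macrophages. Hif1a was at 51.5 and 56.8 CPM in cancer cells, below macrophages, endothelium and stroma of either tissue.

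Other genes were present in cancer cells and were not called. Bnip3 was at 81.5 and 88.3 CPM in cancer cells, within 2-fold of each other tumor class. Egln1 was at 89.6 and 81.4, with endothelium 2.09-fold (interval 1.55 to 2.75) and 2.11-fold (interval 1.56 to 2.81) higher, and Ddit4 at 74.8 and 63.1, against 31.3 and 32 in tumor macrophages. Pgk1 was at 801 and 786 CPM in cancer cells against 378 and 459 in tumor stroma, and Pkm at 1612 and 1675 against 721 and 748. The difference from stroma was past 2-fold for Pkm in both libraries, but macrophages (1112 and 1156 CPM) and endothelium (1288 and 979.6) were closer, so neither gene was called.

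Message from lysed cancer cells can enter droplets of other tumor cells. Measured by Krt8, Cldn3 and Psca, tumor macrophages held a median of 6.33% and 2.29% of the cancer cell level in control and D-CAN, endothelium 4.27% and 2.66% and stroma 4.09% and 1.13%. At those median rates cancer cell RNA would account for up to 9.18% of the level of any of the 8 enzymes from Aldoa to Ldha in any of these classes. The markers differed, from 3.42% (Psca) to 5.17% (Krt8) in control stroma and from 1.97% (Psca) to 4.31% (Krt8) in D-CAN macrophages. Shares at the rates of single markers were not computed. Slc16a3, with 17 and 10 UMIs in all cancer cells, was nearly absent from that RNA. After subtraction 16, 15 and 13 genes were called higher in tumor macrophages, endothelium and stroma, where 16, 16 and 15 were before it. The share of all genes called was not computed after subtraction.

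The macrophage classes were made up differently in the tissues. In tumor, the largest cluster had C1qa, C1qb or C1qc UMIs in 90.5% of its cells, while a cluster led by Ly6c2, Ccr2 and Cd74 had them in 23.4%; the single SAT cluster, led by Retnla and C1q genes, had them in 30.04%. Macrophage markers summed to 17588 and 9504 CPM in SAT macrophages of control and D-CAN and 28179 and 25767 in tumor macrophages. Dendritic markers summed to 466 and 706 CPM in SAT macrophages and 67.1 and 136 in tumor macrophages, and B cell markers to 201 and 396 and 26.8 and 16.9. Neutrophil markers ran the other way, at 721 and 188 CPM in SAT and 3476 and 1087 in tumor macrophages, and the part of these markers in the tissue difference was not tested. Each of the 4 tumor macrophage clusters on its own stood 2-fold above SAT macrophages in both pairs for some of the 33 genes. The counts were 16 of 23 genes read (all genes 6.1%) in the largest cluster, 9 of 19 genes read (all genes 3.16%) in the Ly6c2 cluster, 9 of 16 genes read (all genes 5.56%) in the cluster led by Apoe and C1qa, and 8 of 14 genes read (all genes 7.65%) in the one led by Ccl12 and Gatm, and all 4 clusters included Aldoa, Tpi1, Eno1, Pkm and Ldha. These counts used the first minimum, which a gene scarce in SAT could pass only by being high in tumor. Of those called in the largest cluster, Slc2a1, Pfkl, Slc16a3, Bnip3, Ankrd37, P4ha1 and Hilpda did not meet the second minimum in SAT macrophages. Aldoa, Tpi1, Eno1, Pkm and Ldha did meet it. Limited to cells with a C1q UMI, the mean log2 ratio over both pairs was 2.60 for Gapdh against 2.20 in the whole class. Hilpda was at 209 and 173 CPM in the largest tumor cluster and 97.4 and 40.4 in the Ly6c2 cluster.

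Beyond the 33 genes, a list of 52 further genes of glycolysis, pyruvate entry and the HIF response was read in the same way. In macrophages 24 could be read, with 6 higher and 2 lower in tumor; in endothelium 24, with 7 and 2; and in stroma 28, with 11 and 2. All genes passed at 4.86% and 4.42%, 4.59% and 5.74%, and 6.22% and 8.73% in the same order. The median log2 ratios of the list, 0.59, 0.49 and 0.35, were below those of the 33 genes. Among those called higher in all 3 classes were Mif, a cytokine gene, Ero1l (Ero1a), the oxidase of disulfide formation, and Fam162a, a mitochondrial protein gene.

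In macrophages Hmox1, heme oxygenase, was at 947 and 945 CPM against 204 and 117 in SAT, and Mif at 815 and 679 CPM against 174 and 126. In stroma Plod2 and Lox, a lysyl hydroxylase and the lysyl oxidase of collagen cross-linking, had log2 ratios of 2.94 and 3.02 and of 3.12 and 2.40. In endothelium Loxl2, a lysyl oxidase relative, had log2 ratios of 3.39 and 3.88 and Ero1l of 2.82 and 1.48. Lower in tumor were Epas1, which encodes HIF-2alpha, in endothelium (241 and 306 CPM against 714 and 762) and stroma (57.6 and 43.0 CPM against 320.5 and 281), Ldhb, the lactate dehydrogenase subunit that favours pyruvate, in macrophages (-1.66 and -1.46) and stroma (-2.44 and -2.93), Tfrc in macrophages (-1.08 and -1.99) and Cited2 in endothelium (-1.07 and -2.44). The part of the endothelial markers of SAT stroma, given beside Ndrg1, in the stromal Epas1 values was not tested. Hif1a and Epas1 stood on opposite sides in endothelium.

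The spread between single cancer cells was measured after thinning each cell to 2000 UMIs, which left out 41 and 11 cells. Variance over mean is 1 for pure counting, and 19 of the 33 genes had a mean of at least 0.05 UMIs a cell in both libraries. It exceeded 1.5 in both libraries for 5 of them, where 5.46% of all genes measured did. In control and D-CAN it was 3.01 and 2.91 for Gapdh, 2.32 and 1.99 for Pgk1, 1.96 and 1.99 for Ldha, 1.73 and 1.66 for Aldoa and 1.55 and 1.81 for Pkm. These are abundant enzymes, and the share over all genes was not matched on mean level. The count also differed with the depth of thinning. At 1000 UMIs 2 of 14 passed, where 94 of all 2275 genes measured did. At 5000 UMIs 8 of 23 passed, Tpi1, Pgam1 and Bnip3 being added, where 420 of all 6733 genes did. Spread did not follow the mean level alone. At a mean of 3.21 UMIs Pkm spread less than Pgk1 at 1.61, and Pgam1 at 1.21 had 1.27 and 1.22.

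**Figure D4:**
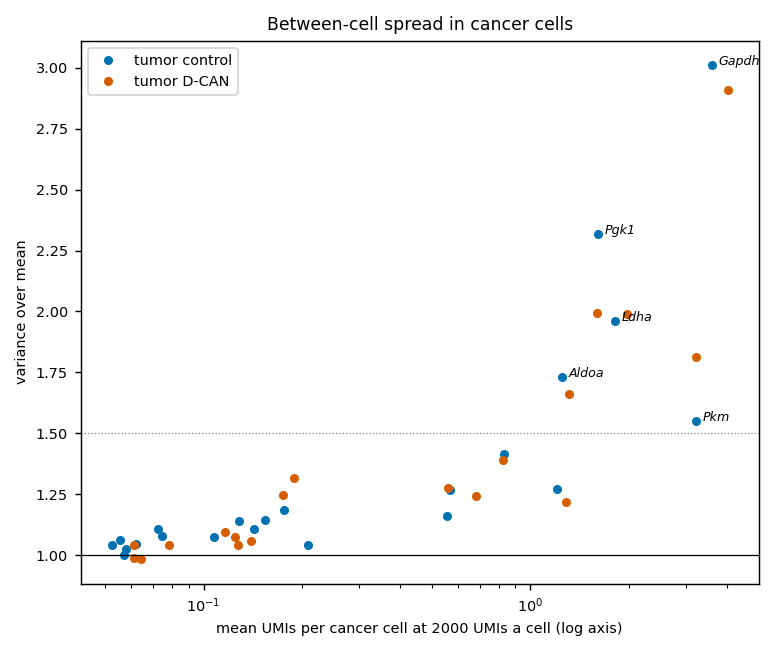
Variance over mean (vertical axis) against mean UMIs per cell (horizontal axis, log scale) for each gene with a mean of at least 0.05 in cancer cells thinned to 2000 UMIs, blue for the control and orange for the D-CAN tumor library, with lines at 1 (counting alone) and 1.5. Gapdh, Pgk1, Ldha, Aldoa and Pkm lie above 1.5 in both libraries, and Pgam1 lies below it at a mean close to that of Aldoa.

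Thinned to 5000 UMIs (1015 and 598 cells), the summed upper and lower glycolytic enzymes had a median of 29 and 30 UMIs a cell, with the 10th to 90th percentiles at 16 to 57 and 16.7 to 55.3. Across these cells, which share a library and a fixed depth, Gapdh and Pgk1 had a Spearman correlation of 0.45 and 0.46, Gapdh and Ldha 0.51 and 0.42 and Aldoa and Gapdh 0.44 and 0.44. The enzyme sum went with the mitochondrial share of UMIs at -0.32 and -0.38, and with the summed hypoxia targets at 0.30 and 0.20. The part of the mitochondrial share in the spread was not tested.

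By cluster, cancer cells led by Klk1b and Psca genes had Aldoa at 380.5 and 399 CPM and Ldha at 597 and 678, where those led by Cxcl17 and Scgb2a2 had 885 and 800.1 and 1160.1 and 1129. The cycling cluster, with Rrm2 and Cdc20 among its leading genes, had Ldha at 1241 and 1185. Among the 5 cancer clusters Hilpda lay between 20.7 and 32.0 CPM in both libraries, and Ddit4 was at 112 and 74.8 in the cluster led by Msln and Krt6a and 45.7 and 34.0 in the Klk1b cluster. The larger unnamed cluster, high in mitochondrial UMIs, had Gapdh at 476 and 374 and Aldoa at 208 and 143 CPM, but Hk2 at 102 and 88.5.

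D-CAN was compared with control within each class. In cancer cells 29 genes could be read and none was 2-fold apart in either direction (all genes 0.876% higher and 0.903% lower), with a median log2 ratio of 0.01. Gapdh was at 1981 and 2015 CPM, Ldha at 942 and 962 and Slc2a1 at 27.2 and 28.0 in control and D-CAN. Tumor macrophages had none of 29 apart as well (all genes 1.59% higher and 2.17% lower), with a median of -0.13.

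Tumor endothelium, with 101 control and 67 D-CAN cells, had the lowest median, -0.46 over 26 genes against 0.03 over all genes, and 24 of the 26 had a log2 ratio below 0. Past 2-fold, 0 were higher (all genes 3.99%) and 4 were lower (all genes 3.06%). Hilpda went from 108 CPM (30 UMIs) to 20.6 (6 UMIs), a log2 ratio of -2.30 (ratio 0.191, interval 0.0650 to 0.467). Slc2a1 went from 155 CPM (43 UMIs) to 58.4 (17 UMIs), a log2 ratio of -1.38 (ratio 0.378, interval 0.202 to 0.676). For Egln3 and Pfkfb3 the log2 ratios were -1.09 and -1.03, and the interval of Pfkfb3 reached 1. Gapdh, at 2467 and 1705 CPM, had a ratio of 0.691 (0.614 to 0.777), while Hif1a, at 331 and 316, and Bnip3, at 97.1 and 113, had intervals that spanned 1. Markers of other cells moved between these 2 classes as well: from control to D-CAN, fibroblast markers summed to 86.3 and 869.6 CPM, perivascular markers to 421 and 1358, macrophage markers to 421 and 165 and red cell markers to 1237 and 34.4, while the endothelial markers were at 5795 and 6318. Their part in the lower values was not tested. Of the 52 further pathway genes, 20 could be read in tumor endothelium, with 1 higher (Ndufa4l2) and 5 lower (Egln2, Mxi1, Ero1l, Plod2 and Cited2), and their median was -0.41.

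Tumor stroma had 0 of 28 genes higher (all genes 1.85%) and 1 lower (all genes 2.34%): Egln3 went from 32.0 CPM (25 UMIs) to 12.1 (11 UMIs), a log2 ratio of -1.37 (ratio 0.379, interval 0.168 to 0.798). In SAT macrophages 0 of 18 were higher (all genes 4.91%) and 1 was lower (all genes 4.45%), Slc2a1, on 13 and 7 UMIs with an interval that spanned 1. SAT endothelium had 1 of 26 higher (all genes 1.9%), Ankrd37, and 1 lower (all genes 2.46%), P4ha2. In SAT stroma Adm was the 1 gene higher (all genes 4.07%), going from 17.9 CPM (17 UMIs) to 43.9 (32 UMIs), a log2 ratio of 1.27 (ratio 2.45, interval 1.32 to 4.70), and 2 were lower (all genes 5.22%), Eno1 and Hilpda, on 57 and 21, and 31 and 9 UMIs. SAT stroma of the control library held a fibroblast cluster of 30 cells with no cell in D-CAN. Red cell markers in SAT stroma summed to 1664 CPM in control and 26.1 in D-CAN. In SAT endothelium the clusters led by Btnl9, Car4 and Glycam1 held 291, 115 and 155 cells in control and 44, 94 and 32 in D-CAN. The part of these differences in the ratios was not tested.

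**Figure D5:**
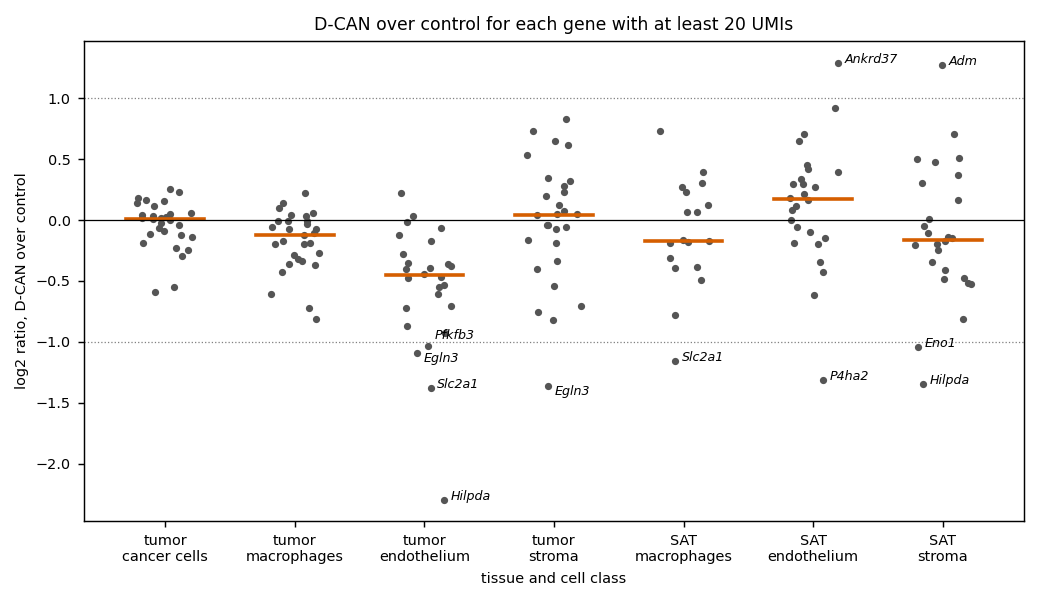
Log2 ratio of D-CAN over control (vertical axis) for each gene with at least 20 UMIs, by tissue and cell class (horizontal axis), with 1 grey point for each gene, an orange bar for the median of the genes read, dotted lines at 2-fold and names for genes past them. Points are tight around 0 in cancer cells and lie mostly below 0 in tumor endothelium.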

How the data were processed

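The 4 libraries were made by the authors with the 10x Chromium 3′ v3.1 kit. They aligned reads to the mouse genome (mm10, Ensembl 93, per the study's methods; Cell Ranger 3.1.0 and STAR 2.6 per the submitters' notes, while the matrix header of the SAT D-CAN library names Cell Ranger 3.0.2) and deposited raw UMI counts per gene and cell with no normalization. Cells with at least 200 genes were kept (8986 of 9128). Each tissue was clustered with Seurat 5.3.0 in R 4.3.3 (2000 variable genes without the 33 genes, 10 principal components, resolution 0.8). A cluster was named from at least 3 markers of 1 list, with detection thresholds set after the clusters were seen. Scrublet (scanpy 1.11.5) called 16 cells, which was taken as not working, so no doublets were removed.

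UMIs were summed by library and class as CPM with exact 95% Poisson intervals. Log2 ratios had 0.5 UMI added, ratios had exact conditional intervals, and genes needed at least 20 UMIs over the classes of a pair or, for cancer cells, over the 4 tumor classes of a library. Where 1 class held 0 UMIs, a fold was given against a floor of 3 UMIs, while the log2 ratio and the call used the added 0.5 UMI. For between-cell spread each cell was thinned without replacement. With 1 library a group, no p-value was computed, and cells were not used as replicates. The steps were tested on simulated data. The 33 genes, the 52 pathway genes and the markers were chosen with earlier results of these data known. A gene was named where it was 2-fold apart in both pairs, was the highest or lowest of its role, or was near 0; of the pathway list the 3 highest and 3 lowest called genes were named, together with genes called in all 3 classes and with those called in tumor endothelium under D-CAN, which were chosen after their values were seen. The values of 1 gene of the pathway list are not reported here, and it stays in the counts of that list. Ero1a appears in the files as Ero1l. Positions are from GENCODE M21 and promoter sequences from RefSeq (GRCm38.p6). Alternatives were other cell filters, resolutions, UMI minimums, scalings (edgeR 4.0.16 TMM, DESeq2 1.42.0 size factors), subtraction of cancer cell RNA, subclasses and thinning depths. Leaving out the cells with the highest Scrublet scores, keeping macrophages with a C1q UMI only, and counting the unnamed tumor cells as cancer cells were chosen after seeing the data.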

Additional observations from a re-analysis of the deposited data

Results flagged for a closer look

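Ankrd37, a hypoxia marker gene, was lower in D-CAN than in control in tumor endothelium, with a log2 ratio of -0.93, and higher in SAT endothelium, with 1.29. In stroma, Eno1 was higher in D-CAN in tumor (0.65) and lower in SAT (-1.04), and Gapdh differed in the same way by less, at 0.12 and -0.52. The 3 genes stood out because their 2 tissues moved in opposite directions beyond counting error. These differences between tissues were not tested, since each is a comparison of single libraries. The make-up of tumor endothelium, SAT endothelium and SAT stroma also differed between control and D-CAN, as given above. Its part in these ratios was not tested.

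Pfkfb3, which makes the activator of phosphofructokinase, reached 319 CPM in control and 498 CPM in D-CAN in the dendritic-like cells of SAT, a class that entered none of the comparisons above. It stood out because that level lies above those of the compared classes.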

How the results depend on the processing

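The counts of genes called higher in tumor lay between 14 and 20 in macrophages, 12 and 19 in endothelium and 11 and 16 in stroma over the alternatives run. Under any of them, 0 genes were called higher in cancer cells. The share of all genes called was not computed under the alternatives. With at least 50 UMIs required, 0 genes were called lower in tumor endothelium in place of 1, by the alternative's own construction, and with fibroblast-like cells only, 1 was called lower in tumor stroma in place of 0. The count of genes with a spread above 1.5 was 2 after thinning to 1000 UMIs and 8 after thinning to 5000 UMIs, in place of 5. Over all genes measured, 94 of 2275 passed at 1000 UMIs and 420 of 6733 at 5000 UMIs. Variance over mean depends on the depth of thinning by its own construction. Of the log2 ratios of single called genes under alternatives, 688 stayed within their counting error, 15 moved further and 0 changed sign. The 688 include the alternatives with other UMI minimums, which could not move the ratio of a single gene, by their own construction. In stroma, the mean log2 ratio over both pairs went below 1 under 1 or more alternatives for Pfkl (lowest 0.60), Aldoa (0.91) and Tpi1 (0.88). The D-CAN medians stayed below 0 in tumor endothelium (-0.49 to -0.39) and tumor macrophages (-0.18 to -0.08) and spanned 0 in the other classes. TMM scaling moved the median of all genes in macrophages from -0.02 to 0.11. No SAT macrophage cluster had C1q UMIs in at least 50% of cells, so that alternative gave no tumor over SAT value. Cell filters were applied within the classes, without new clustering. No paired analysis was possible because each group held 1 library. Shallow SAT classes limited which scarce genes could be read. The unit of replication was the library, and of the 3 SAT classes compared, macrophages rested on the fewest UMIs.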
